A study of Komagataella phaffii with 32 samples.

Results

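The genes of trehalose and glycogen metabolism described here were chosen by name from the gene name column of the deposited tables of the yeast Komagataella phaffii (also called Pichia pastoris). Of 10 names looked for, 8 were found: GLG1, GSY2, GPH1, GDB1, PGM2, UGP1, TPS2 and NTH1. The names TPS1 and GLC3 matched no symbol. These are 8 of 5040 genes in the expression table, and all 8 were among the 4226 genes tested. No measured value entered the choice of names, although earlier results of these data were known when they were chosen.

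Glycogen is a branched polymer of glucose that yeasts store and draw on when carbon supply changes. Its synthesis starts from glucose-6-phosphate through glucose-1-phosphate and UDP-glucose, needs a protein primer, and is reversed by a phosphorylase together with a debranching enzyme. Trehalose is a disaccharide made from glucose-6-phosphate and UDP-glucose, is cleaved by trehalases, and is known in Saccharomyces cerevisiae as a stress protectant and reserve.

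Messenger RNA was sequenced from 3 strains grown at 28 °C in yeast extract, peptone and 20 g/L glycerol: the wild type X-33 (WT), PJA-001 with a genotype labelled crz1_559 (crz1), and PJA-007 with a genotype labelled rim101_117 (rim101). CRZ1 and RIM101 encode transcription factors, and both mutants are described as isogenic with X-33. Each mutant is 1 strain, and the sources used here do not say what its mutation is. The cells were brought from an OD600 of 0.2 to about 0.6, spun down, and taken up in fresh medium with 50 mM TAPS buffer, at pH 5.5 for the sample of 0 min (T0) or at pH 8.0 for those of 15, 30 and 60 min (T15, T30 and T60). WT and crz1 had 3 libraries at each time and rim101 had 2, which gave 32 libraries in 12 groups. All samples after T0 were at pH 8.0, so pH, time after transfer and growth cannot be told apart. The series text names the strain GS115 where the sample labels name X-33. Levels are in RPKM, reads counted per kilobase and set against the size of the library, so a level is relative to the rest of the library, and fewer cells with a transcript and less of it per cell cannot be told apart.

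Depth, read from the spacing of low values, lay between 4.95 and 16.5 M reads (median 7.70 M) in 30 libraries, and at least 60 reads stood behind each nonzero value of the 8 genes for which it could be read. In 9 libraries, none at T0, the median of tested genes was 46.6 to 56.6 RPKM, against 21.01 to 35.4 in the others. Taken over the 4226 genes, the log2 change from T0 had a median above 0 in each comparison. For T15, T30 and T60 it was 0.17, 0.62 and 0.65 in the WT strain, 0.24, 0.43 and 0.29 for crz1, and 0.41, 0.85 and 0.13 for rim101. Of 3250 genes with at least 50 reads in WT T0 replicates 1 and 3, 175 were listed at 0 in replicate 2, so a listed 0 may be a failed estimate. RIM101 mRNA in the rim101 strain was lower than in WT at pH 8.0, with 24.3 to 42.1 RPKM in 6 libraries against 103 to 151 in 9. CRZ1 mRNA was not lower in crz1 (log2 differences from WT of 0.24 to 0.49), so its level does not check the label.

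At T15 in each strain, the largest log2 changes from T0 among the 8 genes were a rise of GDB1 and a fall of GLG1. The same held at T30 in WT and crz1. GDB1 encodes the glycogen debranching enzyme and GLG1 the glycogenin that primes glycogen. At T60 the largest was a fall of GSY2, the glycogen synthase, in WT (-2.23) and crz1 (-2.40). Changes were tested in 1 fit of all 12 groups with limma on log2(RPKM + 1), and a gene is said to have risen or fallen at a Benjamini-Hochberg adjusted p under 0.05 over all genes tested. In WT, 1 gene rose and 2 fell at T15, 1 rose and 2 fell at T30, and 1 rose and 3 fell at T60. Over all genes tested, 13.4% rose and 5.18% fell at T15, 24.1% rose and 4.07% fell at T30, and 26.9% rose and 4.61% fell at T60. For the 8 genes the log2 change had medians of -0.65, -0.49 and -0.61, beside the positive medians of all genes given above.

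In crz1, 1 gene rose and 3 fell at T15, 1 rose and 3 fell at T30, and 1 rose and 4 fell at T60. The shares of all genes that rose and fell were 14.6% and 8.33% at T15, 16.8% and 5.28% at T30, and 12.4% and 5.4% at T60. In rim101, 1 gene rose and 1 fell at T15 and again at T30, and none passed at T60, where limma gave 3 of 8 an unadjusted p under 0.05. The shares of all genes that rose and fell in rim101 were 5.47% and 2.7% at T15, 23.5% and 4.64% at T30, and 2.72% and 1.14% at T60. All comparisons of a strain with its T0 share the T0 libraries of that strain.

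**Figure D1:**
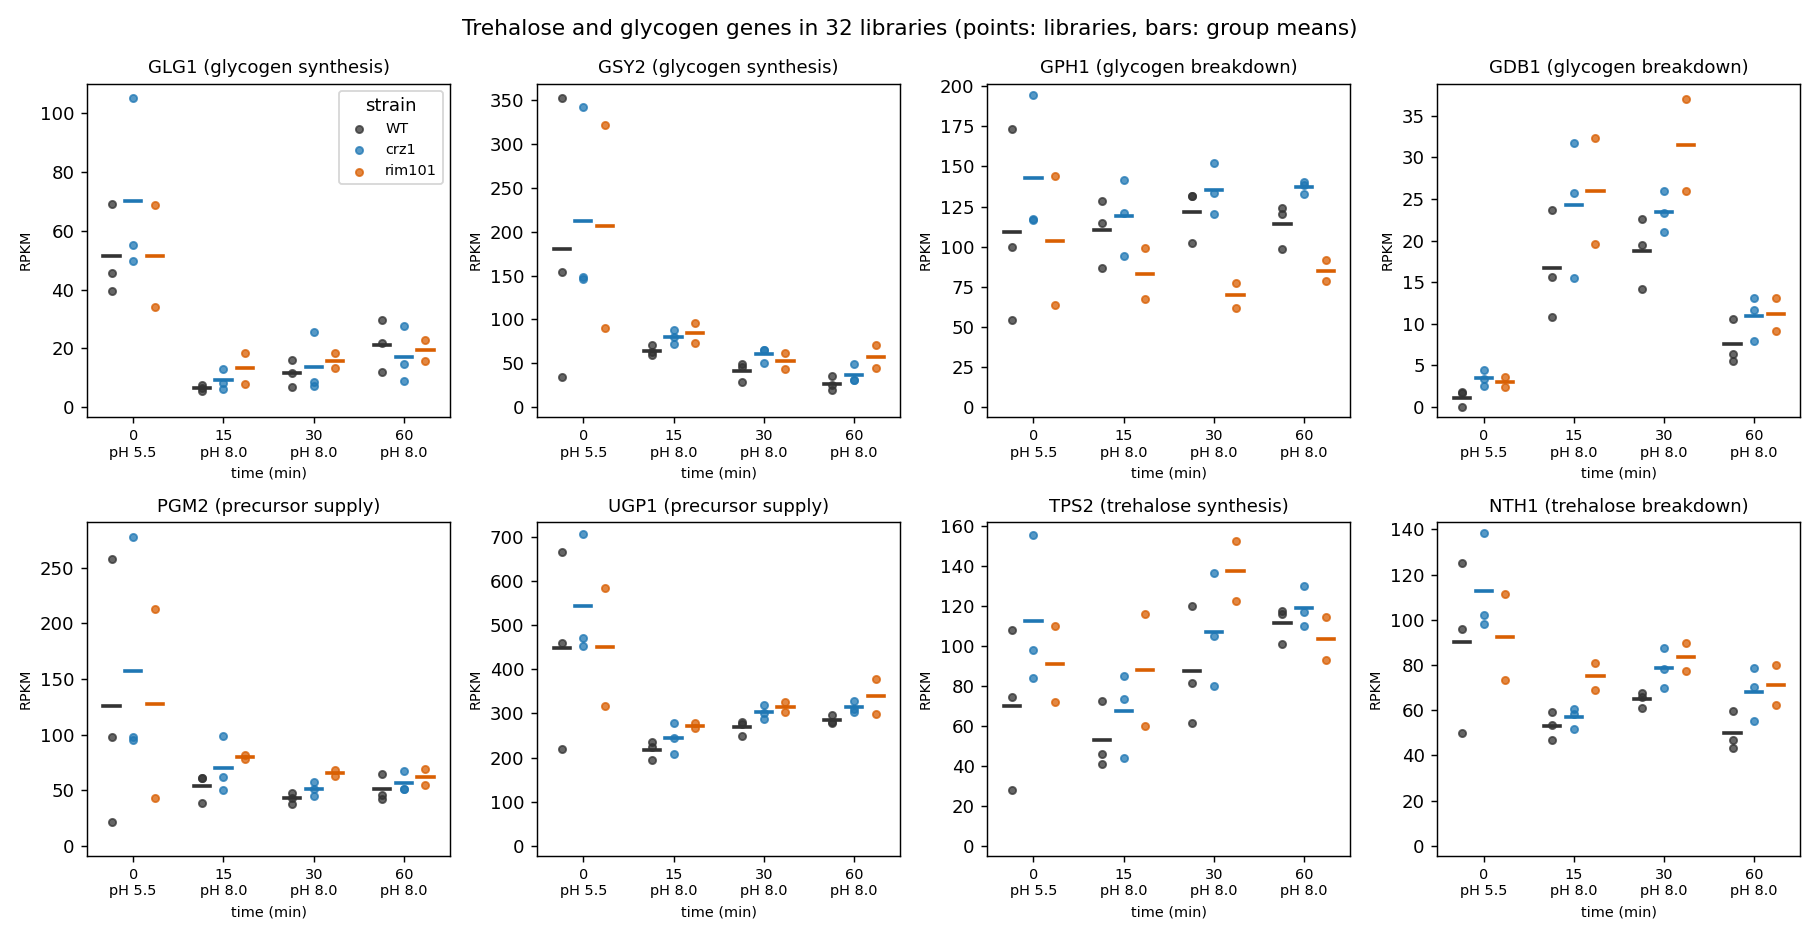
Level in RPKM (vertical axis, linear, from 0) of each of the 8 genes in every library (points) against time in min (horizontal axis), with the group mean as a bar and the strains in colour. GDB1 is low at T0 and high at T15 and T30 in the 3 strains, GLG1 goes the other way, and the T0 points of GSY2, PGM2 and UGP1 spread widely.

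Glycogen synthesis. GLG1 (PAS_chr4_0847, chromosome 4, 1592377 to 1593606, minus strand) encodes glycogenin, the self-glucosylating protein on which a glycogen chain is begun. In the WT libraries it stood at 69.0, 39.5 and 45.6 RPKM at T0, at 5.51, 6.62 and 7.62 at T15, at 16.2, 11.7 and 6.96 at T30, and at 29.7, 21.8 and 11.96 at T60. Each library at pH 8.0 was below each at T0, with the lowest levels at T15. The log2 change was -2.76 at T15 (SE 0.48, adjusted p = 0.000249, limma), -2.08 at T30 (SE 0.48, adjusted p = 0.00273) and -1.29 at T60 (SE 0.48, adjusted p = 0.0457).

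In crz1 GLG1 stood at 105, 55.0 and 49.8 RPKM at T0, at 13.1, 8.22 and 6.29 at T15, at 25.5, 8.61 and 7.10 at T30, and at 27.6, 14.7 and 8.90 at T60. It fell at the 3 times, with log2 changes of -2.77 (adjusted p = 0.000164, limma), -2.40 (0.000777) and -2.03 (0.00489), and the T0 libraries did not overlap the later ones. In rim101 it stood at 68.9 and 34.2 RPKM at T0, at 8.00 and 18.5 at T15, at 18.5 and 13.2 at T30, and at 22.9 and 15.8 at T60. The log2 changes in rim101 were -1.90 (adjusted p = 0.0475, limma), -1.58 (0.0495) and -1.31 (0.317), so the fall passed the threshold narrowly at T15 and T30 and did not pass at T60. With quantile normalization the T60 change of -1.43 passed as well (adjusted p = 0.0298, limma), but with median-ratio scaling it did not (-1.44, 0.0537).

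The calls of GLG1 in WT at T15 and T30 and in crz1 at all 3 times were kept when any 1 library was left out. The WT call at T60 was lost without WT T0 replicate 1 or 3 or without any 1 WT T60 library, with log2 changes of -0.95 to -1.57. In rim101 the T15 call was lost without T0 replicate 1 or either T15 library, and the T30 call without any 1 of its 4 libraries.

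GSY2 (PAS_chr3_0781, chromosome 3, 1497578 to 1499689, minus strand) encodes glycogen synthase, which extends the chain from UDP-glucose. In WT it stood at 352, 34.6 and 154 RPKM at T0, at 70.8, 59.3 and 62.8 at T15, at 28.9, 45.6 and 48.8 at T30, and at 35.3, 19.0 and 25.2 at T60. The T0 libraries spanned a 10.2-fold range over the 3 strains, and WT T0 replicate 2 lay among the libraries of T30 and T60. GSY2 fell in WT at T30 (log2 change -1.60, SE 0.54, adjusted p = 0.0295, limma) and T60 (-2.23, SE 0.54, adjusted p = 0.00466), and its change at T15 was -0.94 (adjusted p = 0.267).

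In crz1 GSY2 stood at 342, 146 and 148 RPKM at T0, at 88.4, 79.9 and 71.8 at T15, at 50.8, 64.8 and 65.0 at T30, and at 48.9, 30.6 and 31.3 at T60. The groups at T0 and at pH 8.0 did not overlap, and the fall passed at T30 (-1.69, adjusted p = 0.0264, limma) and T60 (-2.40, adjusted p = 0.00319) but not at T15 (-1.28, adjusted p = 0.096). In rim101 the levels were 322 and 90.2 RPKM at T0, 95.6 and 73.7 at T15, 61.7 and 43.9 at T30, and 70.7 and 44.3 at T60. The changes in rim101 of -1.02, -1.70 and -1.59 had adjusted p of 0.385, 0.0561 and 0.255 (limma) and did not pass, though without rim101 T0 replicate 2 the change at T30 was -2.61 and passed (adjusted p = 0.0261). It also passed with median-ratio scaling (-2.45, adjusted p = 0.0231, limma) and quantile normalization (-2.55, 0.0189).

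For GSY2 in WT, the T15 change became -1.85 (adjusted p = 0.00363, limma) without T0 replicate 2, and the T30 call was lost without T0 replicate 1 (-0.86), T0 replicate 3 (-1.45), T30 replicate 1 (-1.38) or T30 replicate 2 (-1.69). The T30 change was -2.51 without T0 replicate 2, and the T60 change was -1.48 (adjusted p = 0.0413) without T0 replicate 1. In crz1 the T30 call was lost without T0 replicate 1 (-1.28) or without T30 replicate 1 (-1.57) or 3 (-1.75). It was also lost without the 9 libraries of high median (adjusted p = 0.149, limma). In that fit WT T60 kept 1 library, and the GSY2 call in WT at T60 was lost too.

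Glycogen breakdown. GDB1 (PAS_chr2-2_0437, chromosome 2, 1564268 to 1568845, plus strand) encodes the debranching enzyme, which removes the branch points that stop the phosphorylase. It was listed at 1.69, 0 and 1.77 RPKM in the WT libraries at T0, and stood at 15.6, 10.8 and 23.6 at T15, at 22.7, 19.4 and 14.2 at T30, and at 5.60, 6.35 and 10.6 at T60. The levels at T15 and T30 were above those at T60, which in turn were above those at T0, with no overlap between these 3 ranges. On the log2(RPKM + 1) scale, which understates changes near 1 RPKM, GDB1 rose by 3.11 at T15 (SE 0.39, adjusted p = 4.73e-06, limma), 3.31 at T30 (SE 0.39, adjusted p = 1.76e-06) and 2.08 at T60 (SE 0.39, adjusted p = 0.000634).

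The 0 in WT T0 replicate 2 was 1 of 256 values of the 8 genes and the only 0 among them. About 99 and 104 reads stood behind the other WT T0 values. Without that library the GDB1 changes in WT were 2.63, 2.83 and 1.60 at T15, T30 and T60 and remained called.

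In crz1 GDB1 stood at 3.35, 4.43 and 2.59 RPKM at T0, at 31.7, 25.7 and 15.5 at T15, at 25.9, 21.1 and 23.3 at T30, and at 7.89, 11.7 and 13.1 at T60. It rose by 2.47 at T15 (adjusted p = 6.22e-05, limma), 2.47 at T30 (6.98e-05) and 1.41 at T60 (0.0143). The T60 call in crz1 was lost without T0 replicate 3 (1.27), T60 replicate 2 (1.35) or T60 replicate 3 (1.27). In rim101 the levels were 2.36 and 3.63 RPKM at T0, 19.6 and 32.3 at T15, 37.0 and 26.0 at T30, and 13.1 and 9.16 at T60. GDB1 rose there by 2.73 at T15 (adjusted p = 0.000607, limma) and 3.02 at T30 (0.000152), while the T60 change of 1.60 had an adjusted p of 0.0663 although both libraries were above both T0 libraries.

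From T30 to T60 the GDB1 level dropped in each strain, with log2 changes of -1.23 in WT, -1.06 in crz1 and -1.42 in rim101, and all T60 libraries of a strain were below its T30 libraries. None of these steps passed over all genes (adjusted p = 0.105, 0.225 and 0.0643, limma). Over the 3 strains, 0 of 48 tests of a step from T15 to T30 or from T30 to T60 passed for the 8 genes, and 3 had an unadjusted p under 0.05, all of them this step of GDB1. Of all genes, 0.686% and 3.03% passed at the WT steps from T15 to T30 and from T30 to T60, 1.94% and 2.65% at those of crz1, and 0.166% and 7.41% at those of rim101.

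GPH1 (PAS_chr2-1_0173, chromosome 2, 321077 to 323644, plus strand) encodes glycogen phosphorylase, which releases glucose-1-phosphate from chain ends. Unlike GDB1 it passed in no comparison with T0 on the RPKM values as deposited (limma). In WT it was at 109 ± 60.0 (T0), 110 ± 21.2 (T15), 122 ± 17.1 (T30) and 114 ± 13.7 RPKM (T60; SD, n = 3), with log2 changes of 0.15, 0.30 and 0.21. These changes are below the median of all genes at each time, and with median-ratio scaling between libraries they were -0.01, -0.22 and -0.37. In the authors' deposited table of comparisons they were -0.16, -0.37 and -0.51, none with an FDR under 0.05. There GPH1 in rim101 at T30 over WT T0 was at -1.58 with an FDR of 0.000518. In crz1 GPH1 stood at 195, 117 and 117 RPKM at T0, at 142, 121 and 94.3 at T15, at 152, 120.4 and 134 at T30, and at 133, 138 and 140.3 at T60. In rim101 it was at 144 and 63.9 RPKM at T0, at 99.1 and 67.3 at T15, at 77.5 and 62.0 at T30, and at 91.5 and 78.7 at T60. In both mutants the later libraries lay within or near the range at T0, and the group means ran from 119 to 143 RPKM in crz1 and from 69.8 to 104 in rim101. In rim101 at T30 the change of -0.46 became -1.33 with quantile normalization and passed as a fall (adjusted p = 0.0359, limma), and with median-ratio scaling it was -1.22 (0.0521).

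**Figure D2:**
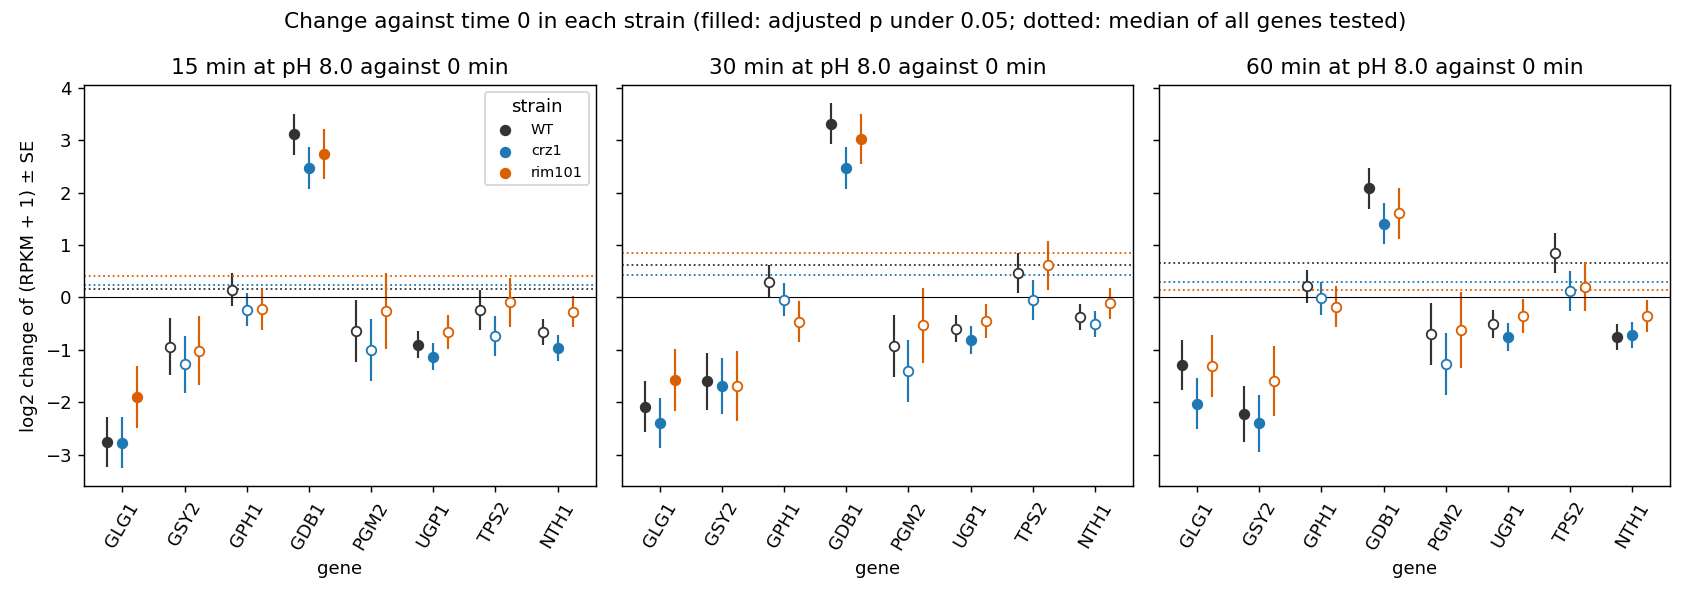
Log2 change of RPKM + 1 against T0 (vertical axis, with SE as bars) of the 8 genes (horizontal axis) at 15, 30 and 60 min, with the strains in colour, filled points at an adjusted p under 0.05, and dotted lines at the median of all genes tested in each strain. GDB1 lies above all dotted lines and GLG1, GSY2, PGM2, UGP1 and NTH1 lie below 0 at each time.

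Precursor supply. UGP1 (PAS_chr1-3_0122, chromosome 1, 229631 to 231142, plus strand) makes UDP-glucose, the glucose donor of both glycogen and trehalose, and had the highest mean level of the 8 genes in all 12 groups. In WT it stood at 665, 220 and 459.1 RPKM at T0, at 224, 195 and 235 at T15, at 281, 276 and 249 at T30, and at 296, 278 and 281 at T60. It fell at T15 (log2 change -0.90, SE 0.26, adjusted p = 0.0172, limma), and its changes of -0.60 and -0.51 at T30 and T60 had adjusted p of 0.0912 and 0.129. With median-ratio scaling these WT changes were -1.12 and -1.10 and passed (adjusted p = 0.0129 and 0.0157, limma). Under quantile normalization they were -0.71 and -0.71 and did not pass (adjusted p = 0.0748 and 0.067, limma). WT T0 replicate 2 was within the range of the later libraries.

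In crz1 UGP1 fell from 707, 471 and 452 RPKM at T0 to between 208 and 329 in the 9 later libraries, with log2 changes of -1.13 (adjusted p = 0.00247, limma), -0.81 (0.0275) and -0.76 (0.0479). In rim101 it was at 583 and 316 RPKM at T0 and at 267 to 378 later, and its changes of -0.66, -0.45 and -0.35 did not pass. That at T30 passed with median-ratio scaling (-1.21, adjusted p = 0.0338, limma) but not with quantile normalization (-0.79, 0.091). The WT call at T15 was lost without T0 replicate 1 (-0.54), T0 replicate 3 (-0.81) or T15 replicate 2 (-0.82), while without T0 replicate 2 the WT changes at T30 and T60 passed at -1.04 and -0.95. In crz1 the T30 call was lost without T0 replicate 1 or any 1 T30 library (-0.61 to -0.85) and the T60 call without any 1 of its 6 libraries (-0.55 to -0.87).

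PGM2 (PAS_chr1-4_0264, chromosome 1, 1883939 to 1885636, minus strand) encodes a phosphoglucomutase, which interconverts glucose-6-phosphate and glucose-1-phosphate. In WT it stood at 258, 21.4 and 97.7 RPKM at T0, at 60.9, 38.6 and 61.0 at T15, at 43.2, 47.8 and 37.8 at T30, and at 64.7, 45.6 and 42.0 at T60. Its T0 libraries over the 3 strains spanned a 12.98-fold range, against 2.60-fold over the 24 libraries at pH 8.0. In crz1 it was at 278, 97.9 and 95.05 RPKM at T0, at 98.5, 62.1 and 50.5 at T15, at 57.5, 44.8 and 51.5 at T30, and at 67.4, 51.5 and 50.9 at T60, and the T30 and T60 libraries were below all at T0. The rim101 libraries, at 213 and 42.8 RPKM at T0 and between 54.8 and 81.3 later, overlapped. PGM2 changes ranged from -0.26 to -1.41 over the 9 comparisons with T0, and none passed. The crz1 change at T30 passed with median-ratio scaling (-1.79, adjusted p = 0.0318, limma) and quantile normalization (-1.79, 0.0231). Without WT T0 replicate 2 the WT changes were -1.58, -1.87 and -1.65 at T15, T30 and T60, with adjusted p of 0.0262, 0.00755 and 0.0163 (limma).

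Trehalose. TPS2 (PAS_chr1-3_0054, chromosome 1, 100843 to 103344, plus strand) encodes the phosphatase that turns trehalose-6-phosphate into trehalose. In WT it stood at 108, 27.9 and 74.6 RPKM at T0, at 45.8, 40.8 and 72.5 at T15, at 120, 81.4 and 61.2 at T30, and at 117, 116 and 101 at T60. Its WT changes of -0.24, 0.46 and 0.86 did not pass (adjusted p = 0.781, 0.364 and 0.0869, limma), and the last became 1.26 (adjusted p = 0.0268) without WT T0 replicate 1. With median-ratio scaling they were -0.40, -0.06 and 0.27. In crz1 TPS2 stood at 155, 97.6 and 83.8 RPKM at T0, at 84.9, 73.3 and 43.7 at T15, at 137, 79.8 and 105 at T30, and at 129.99, 117 and 109.9 at T60. In rim101 it was at 109.8 and 72.0 RPKM at T0, at 59.9 and 116 at T15, at 153 and 123 at T30, and at 114 and 92.8 at T60. Only the rim101 libraries at T30 lay above all T0 libraries of their strain, and the changes in both mutants, from -0.73 to 0.61, did not pass. The lowest, that of crz1 at T15, passed as a fall with median-ratio scaling (-0.94, adjusted p = 0.0283, limma) and quantile normalization (-0.94, 0.0205).

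NTH1 (PAS_chr4_0816, chromosome 4, 1540708 to 1543053, minus strand) encodes a trehalase, whose namesake in S. cerevisiae is the neutral trehalase of the cytosol. In WT it stood at 125, 49.9 and 95.9 RPKM at T0, at 53.3, 46.9 and 59.4 at T15, at 60.9, 65.9 and 67.7 at T30, and at 43.2, 46.8 and 59.7 at T60. In crz1 it was at 138, 102 and 98.2 RPKM at T0, at 58.3, 60.7 and 51.6 at T15, at 70.0, 78.1 and 87.5 at T30, and at 55.1, 70.2 and 78.8 at T60, below T0 in each later library. In rim101 it was at 111.5 and 73.4 RPKM at T0 and between 62.5 and 89.9 later. In WT NTH1 fell at T60 (log2 change -0.76, SE 0.25, adjusted p = 0.0242, limma), and in crz1 at T15 (-0.96, adjusted p = 0.0052) and T60 (-0.72, adjusted p = 0.0445). Its changes of -0.27, -0.12 and -0.35 in rim101 did not pass.

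The WT T60 call of NTH1 was lost without T0 replicate 1 (-0.48), T0 replicate 3 (-0.67), T60 replicate 1 (-0.66) or T60 replicate 2 (-0.72), and without T0 replicate 2 its WT changes at T15 and T30 passed at -1.03 and -0.75. In crz1 the T60 call was lost without any 1 T0 library or T60 replicate 1 or 2, with changes of -0.57 to -0.81, and with quantile normalization (-1.01, adjusted p = 0.0665, limma).

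At T0, replicate 1 had the highest level of its strain for 7 of the 8 genes in all 3 strains. The exception was GDB1. The summed level of the 8 genes at T0 was 1752, 447 and 1029 RPKM in WT replicates 1, 2 and 3, 1924, 1091 and 1047 in crz1, and 1554 and 696 in rim101 replicates 1 and 2. At pH 8.0 the sums ran from 485 to 840 RPKM over the 24 libraries, so WT T0 replicate 2 was below all of them. Among the 7 pairs of T0 libraries with the same number in different strains, deviations from the group means correlated at 0.29 to 0.65 across genes, which are not independent replicates.

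Since every change against T0 rests on these libraries, the counts were repeated without them, alternatives added after the data were seen. Without replicate 2 at T0 in the 3 strains, the number of the 8 genes called at T15, T30 and T60 was 6, 6 and 5 in WT, 6, 5 and 6 in the crz1 strain, and for rim101 4, 5 and 2, and GDB1 was the 1 gene that rose in each of them. Without replicate 1 at T0 the numbers were 2, 3 and 3 in WT, 4, 4 and 3 in the crz1 strain, and for rim101 1, 1 and 0. In WT without replicate 1 at T0, a gene other than GDB1 rose as well, GPH1 at T30 (0.71, adjusted p = 0.0417, limma) and TPS2 at T60 (1.26, adjusted p = 0.0244). What set these T0 libraries apart was not tested.

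**Figure D3:**
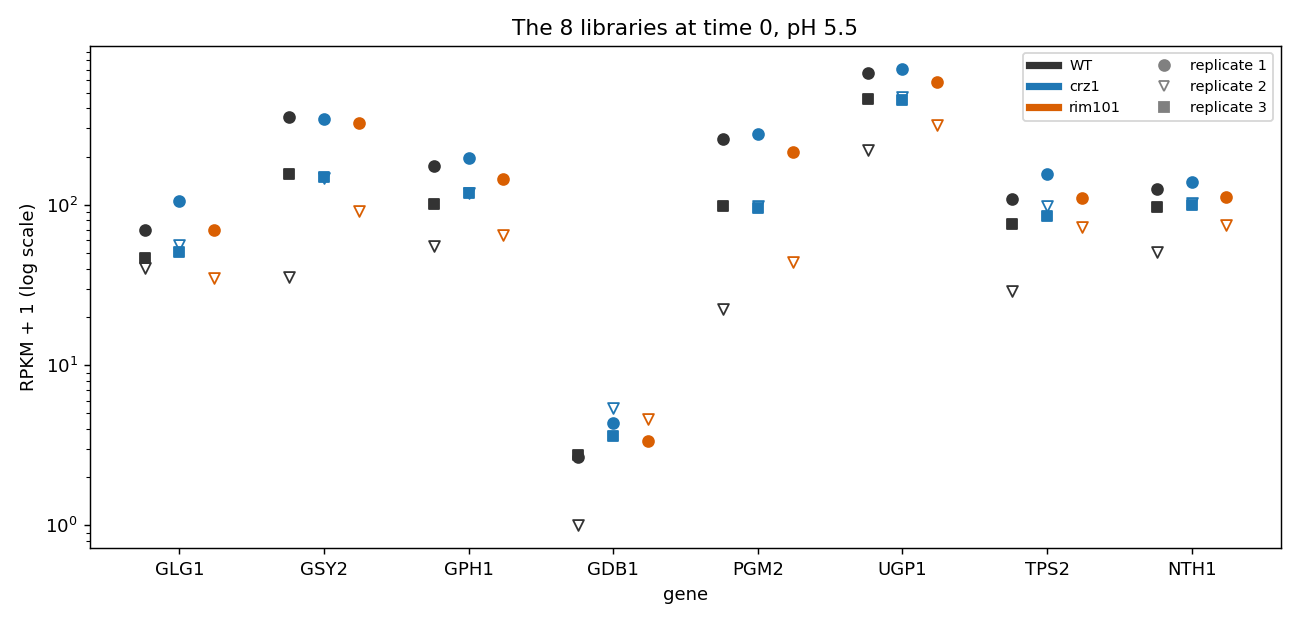
Level (RPKM + 1, log axis) of the 8 genes (horizontal axis) in the 8 libraries at T0 and pH 5.5, with strains in colour and replicate numbers as symbols. Replicate 1 (circles) is highest in its strain for all genes but GDB1. WT replicate 2 is the lowest of the 8 libraries for all genes but GLG1, with GSY2 at 34.6 and PGM2 at 21.4 RPKM.

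The order of the 8 levels was compared by group means. In WT at T0 they ran from UGP1 (448 RPKM) through GSY2 (180), PGM2 (126), GPH1 (109), NTH1 (90.3), TPS2 (70.1) and GLG1 (51.4) to GDB1. Each of the first 7 overlapped its neighbour over the 3 libraries, and GDB1 lay below all. At T60 the order was UGP1 (285), GPH1 (114), TPS2 (111), PGM2 (50.8), NTH1 (49.9), GSY2 (26.5), GLG1 (21.1) and GDB1 (7.52). There GPH1 and TPS2, PGM2 and NTH1, and GSY2 and GLG1 overlapped pairwise, and the steps between these pairs exceeded the range of the libraries. In WT T0 replicates 1 and 3 GSY2 was below UGP1 alone, while in replicate 2 it was also below GPH1, NTH1 and GLG1. In the 3 WT libraries at T60 it was below UGP1, GPH1, TPS2, PGM2 and NTH1.

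Ratios of levels within a library are given as values with no test. They were taken with a pseudocount of 1 RPKM, so the scaling of a library cancels only for levels far above 1 RPKM. The log2 ratio of the glycogen breakdown genes (GPH1 + GDB1) to the glycogen synthesis genes (GSY2 + GLG1) in WT was -0.89 ± 0.41 (T0), 0.81 ± 0.27 (T15), 1.39 ± 0.35 (T30) and 1.37 ± 0.40 (T60; SD, n = 3). All 9 WT libraries at pH 8.0 were above the 3 at T0, including T0 replicate 2. In crz1 the means were -0.87, 0.66, 1.09 and 1.49 at T0, T15, T30 and T60.

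In rim101 the same ratio was -1.14 ± 0.38, 0.15 ± 0.06, 0.56 ± 0.08 and 0.35 ± 0.27 (SD, n = 2). At each time at pH 8.0 both rim101 libraries were below all libraries of the other strains, which at T15 began at 0.49 in crz1 and 0.56 in WT, while rim101 reached 0.20. The ratio of GPH1 to GSY2 alone, looked at after these values were seen, was -0.34, 0.75, 1.57 and 2.10 in WT and -0.82, -0.04, 0.41 and 0.59 in rim101 at T0, T15, T30 and T60. It was thus lower on average in rim101 at T0 too, where the WT libraries ran from -1.02 to 0.63 and overlapped those of rim101. The log2 ratio of NTH1 to TPS2 in WT was 0.46, 0.04, -0.37 and -1.15 at T0, T15, T30 and T60. It was 0.04, -0.19, -0.41 and -0.81 in crz1 and 0.02, -0.16, -0.71 and -0.54 in rim101. The WT libraries at T0 were at 0.21, 0.82 and 0.36. The log2 ratio of GDB1 to GLG1 in WT was -4.71, 1.17, 0.69 and -1.34 at these times. Its T0 mean includes the library with GDB1 listed at 0 and depends on the pseudocount.

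**Figure D4:**
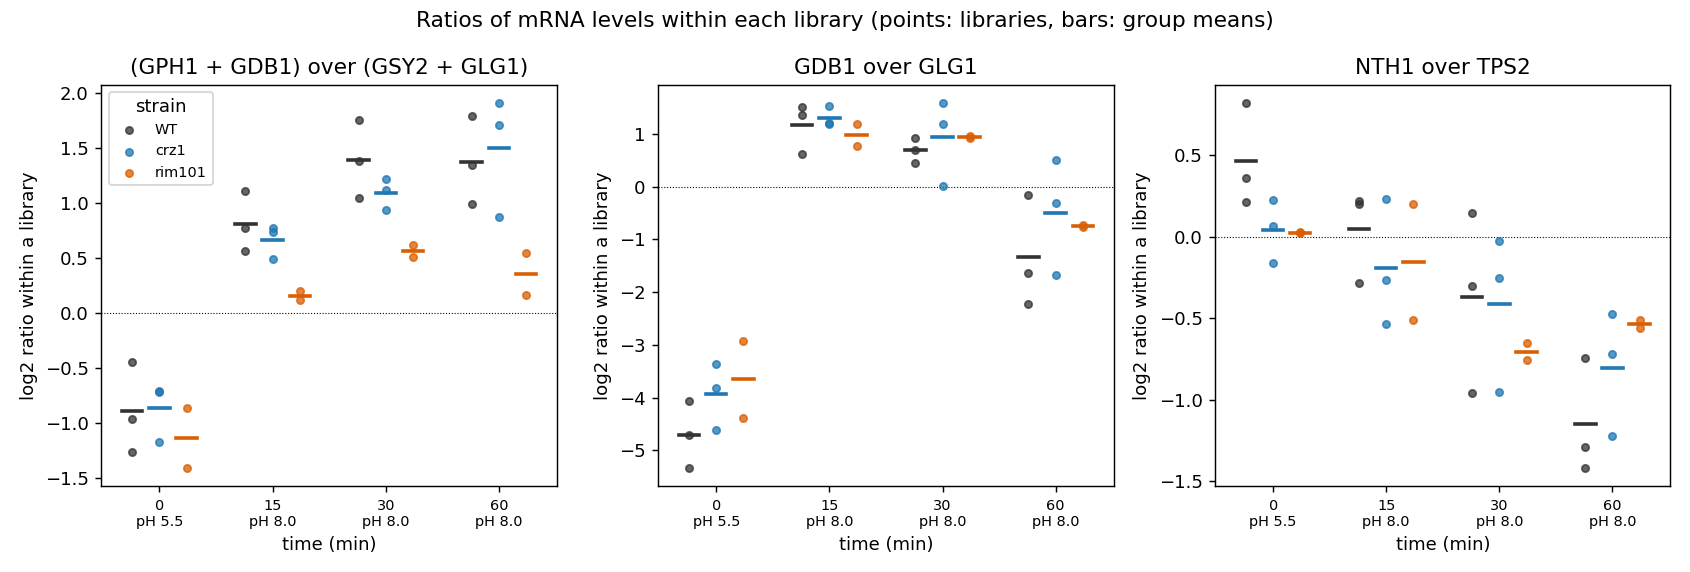
Log2 ratio of levels within each library (vertical axis, points are libraries and bars are group means) against time in min (horizontal axis) for breakdown over synthesis genes of glycogen, GDB1 over GLG1, and NTH1 over TPS2. The first ratio is below 0 in all T0 libraries and above 0 in all libraries at pH 8.0, with the rim101 libraries lowest at each of these times.

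Set directly against WT, neither mutant showed a call for any of the 8 genes. At T0, T15, T30 and T60, 0.071%, 0.568%, 0.426% and 0.26% of all genes differed between crz1 and WT, and 0.118%, 1.06%, 1.51% and 1.66% between rim101 and WT. Of the 8 genes, 0 of 32 tests passed for each mutant with limma, and 2 of 32 for each had an unadjusted p under 0.05. For crz1 these were GDB1 and TPS2 at T0, with log2 differences of 1.17 (95% interval 0.36 to 1.98) and 0.82 (0.03 to 1.61). For rim101 they were GDB1 at T0 (1.01, 0.10 to 1.92) and GPH1 at T30 (-0.79, -1.52 to -0.06).

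The GDB1 differences at T0 include the WT library listed at 0. GPH1 at T30 stood at 77.5 and 62.0 RPKM in the rim101 libraries and at 132, 132 and 102 in WT, with an adjusted p of 0.472 (limma). At T60 it was at 91.5 and 78.7 RPKM in rim101 and 124, 98.8 and 120 in WT, a log2 difference of -0.42 (-1.15 to 0.31). GSY2 at T60 was higher in both rim101 libraries than in all 3 of WT, at 1.09 (-0.16 to 2.34).

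The difference in response is the change of a mutant since its T0 minus that of WT. It passed for 0 of 24 tests for each mutant, with 0 at an unadjusted p under 0.05 (limma). Over all genes it passed for 0%, 0.0237% and 0% in crz1 and 0.45%, 0.781% and 0.568% in rim101 at T15, T30 and T60. The intervals are wide: for GDB1 at T30 the difference was -0.84 in crz1 (-1.99 to 0.31) and -0.29 in rim101 (-1.58 to 0.99), and for GLG1 at T15 it was -0.02 in crz1 (-1.43 to 1.40) and 0.85 in rim101 (-0.73 to 2.43). For GSY2 at T60 it was -0.17 (-1.76 to 1.41) and 0.64 (-1.13 to 2.40). Differences of over 2 on the log2 scale for GLG1 and GSY2 in rim101 thus lie within these intervals.

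The authors' deposited table of comparisons gives the same direction for GDB1 and GLG1 in WT, with log2 fold changes over WT T0 of 3.60, 3.44 and 2.16 for GDB1 and -3.15, -2.72 and -1.94 for GLG1 at T15, T30 and T60. In the authors' deposited table the adjusted p (FDR) of GDB1 at T60 was 0.52, above the threshold, unlike the value here. In the authors' deposited table PGM2 in WT at T30 had a log2 fold change of -2.06 with an FDR of 0.0256, and NTH1 at T60 had -1.40 with 0.0496. UGP1 in WT at T15, called here, had -1.20 with an FDR of 0.0531. The rim101 values there are set against WT T0, not rim101 T0. At T30 in rim101 the FDR was under 0.05 for GDB1 (3.82), GLG1 (-2.59), GSY2 (-2.70), GPH1 (-1.58), PGM2 (-1.93), UGP1 (-1.48) and NTH1 (-1.06). Of these, only GDB1 and GLG1 were called here in rim101 at T30. Of the scaling and test behind these values, the sources used here give only the name edgeR.

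Across the 12 group means of log2(RPKM + 1), GLG1 and UGP1 had a Pearson correlation of 0.96, GSY2 and PGM2 of 0.89, and GLG1 and GDB1 of -0.86. For TPS2 the correlations ran from -0.29 to 0.35 and for GPH1 from -0.16 to 0.06. These are descriptions over 12 points that share strains, times and scaling. Among 3316 genes with a mean of at least 10 RPKM, the gene most like GLG1 was PAS_chr3_0494, with no name or described function (0.97), and that most like GDB1 was PAS_chr2-1_0032, described as holding a glutamine amidotransferase domain (0.98). The most like GSY2 was FLO11, a flocculin (0.97), and the most like GPH1 was GAP1, a general amino acid permease (0.93). For PGM2 it was PAS_chr1-3_0046, with no described function (0.94), for UGP1 PAS_chr4_0642, described as holding a serine aminopeptidase domain (0.97), for TPS2 the ubiquitin-activating enzyme UBA1 (0.98), and for NTH1 PUT3, an activator of proline utilization genes (0.92).

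The remaining step of trehalose synthesis was looked for by description after the values of the 8 genes had been seen. PAS_c131_0017 (chromosome 3, 2234512 to 2235933, minus strand) has no symbol in the tables and is described as a trehalose-6-phosphate synthase, the enzyme that precedes the Tps2 phosphatase. In WT it stood at 140, 133 and 114 RPKM at T0, at 165, 148 and 163 at T15, at 280, 206 and 179 at T30, and at 220, 197 and 174 at T60, so each later library was above each at T0. In WT it rose at T30 (log2 change 0.76, adjusted p = 0.00497, limma) and T60 (0.61, adjusted p = 0.0206). It also rose at T30 in crz1 (0.77, adjusted p = 0.00485, limma) and in rim101 (0.99, adjusted p = 0.00531).

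The changes of PAS_c131_0017 in WT and rim101 were close to the medians of all genes (0.62 and 0.65 in WT, 0.85 in rim101), while that in crz1 was above its median of 0.43. With median-ratio scaling the 4 changes were 0.23, 0.02, 0.39 and 0.23, of which the crz1 value passed (adjusted p = 0.0343, limma). With quantile normalization they were 0.45, 0.19, 0.51 and 0.46, and the 3 at T30 passed (adjusted p = 0.0154 in WT, 0.00478 in crz1 and 0.0413 in rim101, limma). The WT T30 call was lost without T30 replicate 1 (0.58), the WT T60 call without T0 replicate 3 or T60 replicate 1 or 2 (0.52 to 0.60), and the rim101 call without T30 replicate 1 (0.82). In the authors' deposited table the log2 fold changes over WT T0 were 0.25 and 0.03 in WT at T30 and T60. At T30 they were 0.31 in crz1 and 0.22 in rim101, and none of these had an FDR under 0.05.

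A further phosphoglucomutase, PRM15 (PAS_chr2-1_0771, chromosome 2, 1471227 to 1473020, plus strand), was also chosen by description after the values were seen; its S. cerevisiae namesake acts on pentose phosphates as well. It was listed at 3.18, 4.20 and 1.65 RPKM in WT at T0, and then at 0 in 8 of the 9 WT libraries at pH 8.0 and at 3.43 in WT T60 replicate 3. In crz1 it was at 4.24, 3.40 and 2.10 RPKM at T0 and at 0 in 6 of 9 libraries at pH 8.0, with 0.84, 1.64 and 2.91 at T60.

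In rim101 PRM15 stood at 6.72 and 6.05 RPKM at T0, at 7.02 and 10.1 at T15, at 15.1 and 18.9 at T30, and at 14.02 and 13.9 at T60. All 6 rim101 libraries at pH 8.0 were above all 18 of the other strains. At T0 too, both rim101 libraries were above those of WT (highest 4.20 RPKM) and crz1 (highest 4.24). PRM15 was called higher in rim101 than in WT at T15, T30 and T60 (adjusted p = 0.000266, 5.06e-06 and 0.000353, limma), and no fold is given against groups listed at 0. It did not fall in rim101, where its change at T30 was 1.28 (adjusted p = 0.0757).

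Among other genes of the pathway, 7 of 21 names in a list drawn up from S. cerevisiae were found and tested: TPS3, ATH1, GIP2, GLC7, GLC8, PCL7 and PHO85. Of the 7, 1 fell in crz1 at T15 and at T60, beside 8.33% and 5.4% of all genes tested. Of all genes, 13.4%, 24.1% and 26.9% rose in WT at T15, T30 and T60. The shares that rose were 14.6%, 16.8% and 12.4% in crz1 and 5.47%, 23.5% and 2.72% in rim101. At these times, 1, 1 and 0 of the 7 rose in WT. In crz1 1, 1 and 1 did, and in rim101 1, 3 and 1. The gene that rose in each case was ATH1 (PAS_chr4_0342, chromosome 4, 697593 to 700643, minus strand), described as an alpha,alpha-trehalase, which in S. cerevisiae is the acid trehalase that acts on extracellular and vacuolar trehalose.

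ATH1 was listed at 0 in all 3 WT libraries at T0, and then at 11.5, 11.6 and 11.5 RPKM at T15, at 5.42, 8.24 and 8.76 at T30, and at 0.0515, 0 and 1.44 at T60. In crz1 it was listed at 0, 0.17 and 0 at T0, at 28.1, 14.9 and 9.90 at T15, at 11.1, 16.2 and 17.5 at T30, and at 0.921, 2.77 and 3.72 at T60. In rim101 it was listed at 0 and 1.73 at T0, at 24.02 and 49.6 at T15, at 32.6 and 21.5 at T30, and at 9.35 and 7.86 at T60. In every strain the libraries at T15 and T30 were above those at T0 and T60.

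The rise of ATH1 was called in WT at T15 and T30 (adjusted p = 3.98e-06 and 3.09e-05, limma) and in crz1 and rim101 at all 3 times, and no fold is given because the WT reference is listed at 0. From T30 to T60 it fell in WT (adjusted p = 0.00163, limma) and crz1 (0.00502). At T60 it was higher in rim101 than in WT (adjusted p = 0.00145, limma), a call that ended at 0.0534 without rim101 T60 replicate 1. The crz1 call at T60 was lost without T60 replicate 2 or 3, with a pseudocount of 5 or with quantile normalization, and the rim101 call at T60 without T0 replicate 1 or either T60 library.

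The other calls of this list were GIP2, a regulatory subunit of the Glc7 phosphatase in S. cerevisiae, which fell in crz1 at T15 and T60, where all libraries were listed at 0, and GLC7 and PHO85 in rim101 at T30. GLC7 encodes the catalytic subunit of protein phosphatase 1 and PHO85 a cyclin-dependent kinase, and both act on glycogen synthase in S. cerevisiae. GLC7 rose by 0.91 (adjusted p = 0.0437, limma) and PHO85 by 1.47 (adjusted p = 0.0382), beside a median of 0.85 over all genes in that comparison. These 3 genes were named after their values were seen, and their calls were not recomputed under the alternatives.

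Of 6 genes listed under hexose phosphorylation and isomerisation, 4 were found, of which 3, 3 and 2 were lower in WT at T15, T30 and T60 and 0 were higher. Of all genes tested, 5.18%, 4.07% and 4.61% fell in WT at these times, and 13.4%, 24.1% and 26.9% rose. GLK1, a glucokinase, fell by 2.43, 2.25 and 2.49 on the log2 scale, and PGI1, the glucose-6-phosphate isomerase, fell by 1.53, 1.17 and 1.13. FBP1, the fructose-1,6-bisphosphatase of gluconeogenesis, fell by 3.28 and 2.76 at T15 and T30 and stood at 0.11 at T60 (adjusted p = 0.898, limma). All 4 fell in crz1 at T15 and T30 and 3 at T60, and in rim101 3, 3 and 2 fell. The shares of all genes that fell were 8.33%, 5.28% and 5.4% in crz1 and 2.7%, 4.64% and 1.14% in rim101. In rim101 the calls of FBP1 and those of GLK1 and PGI1 at T60 were lost without T0 replicate 1, among other libraries.

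Of 12 genes for other users of UDP-glucose, 2 were found. Of all genes tested, 13.4%, 24.1% and 26.9% rose in WT at T15, T30 and T60. FKS1, which encodes the catalytic subunit of 1,3-beta-glucan synthase, changed in WT by 0.40, 0.54 and 0.50 at T15, T30 and T60 and was called each time, though these are near or below the medians of all genes at T30 and T60. KRE6, needed for 1,6-beta-glucan, changed by 0.87, 0.83 and 0.29 and was called at T15 and T30. In crz1 1 of these 2 rose at each time, beside 14.6%, 16.8% and 12.4% of all genes. In rim101 none passed, with FKS1 at 0.04, 0.22 and 0.30 and KRE6 at 0.52, 0.39 and 0.43. There 5.47%, 23.5% and 2.72% of all genes rose. The FKS1 call in WT at T15 was lost without WT T0 replicate 1 (0.37) and that in crz1 at T60 without any of 4 libraries (0.36 to 0.38). The KRE6 call in crz1 was lost without any of 5 libraries at T15 (0.41 to 0.46) and without T30 replicate 2 at T30 (0.47).

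Of 27 genes of nutrient and stress kinases and factors, 14 could be tested, and 2, 3 and 4 of them rose in WT at T15, T30 and T60, 2, 4 and 1 in the crz1 strain, and for rim101 0, 4 and 0, while 1 fell in crz1 at T15 and at T60. In WT 13.4%, 24.1% and 26.9% of all genes rose at these times, so the counts of 2, 3 and 4 of 14 are near the share of all genes. The shares that rose were 14.6%, 16.8% and 12.4% in crz1 and 5.47%, 23.5% and 2.72% in rim101, and 8.33% and 5.4% fell in crz1 at T15 and T60. The largest rise was that of MSN4, whose S. cerevisiae namesake binds stress response elements of trehalose and glycogen genes. It stood at 24.4, 0.282 and 7.49 RPKM in WT at T0 and at 68.9 to 95.7 in 5 of the 6 libraries of T15 and T30, with 38.6 in T15 replicate 3. Without WT T0 replicate 2 the log2 change of MSN4 in WT went from 3.19 to 2.02 at T15 and from 2.58 to 1.41 at T60, where the call was lost. In rim101 its call at T30 (2.28, adjusted p = 0.0469, limma) was lost without any 1 of its 4 libraries. REG1, a subunit of the Glc7 phosphatase in S. cerevisiae, changed by 1.21, 1.43 and 1.11 in WT, and its calls at T15 and T60 were lost without T15 replicate 3 (1.00), T0 replicate 2 (0.79) or T60 replicate 1 (1.03). The heat shock factor HSF1 changed by 0.77, 1.22 and 1.15, and the first did not pass.

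Of 16 general stress genes 8 were tested, and 1, 2 and 2 rose and 5, 5 and 2 fell in WT. Of all genes, 13.4%, 24.1% and 26.9% rose in WT at T15, T30 and T60, and 5.18%, 4.07% and 4.61% fell. The counts that rose are thus near the share of all genes, and those that fell are above it. A gene that rose each time was HSP12, a small membrane-associated stress protein in S. cerevisiae, named here after its values were seen and not recomputed under the alternatives. It stood at 371 ± 131 (T0), 4184 ± 715 (T15), 5388 ± 1378 (T30) and 2065 ± 362 RPKM (T60) in WT (SD, n = 3), with adjusted p under the threshold in all 9 comparisons of a strain with T0 (limma). The Hsp70 gene SSA3 changed by -5.38, -2.29 and 0.37 and the disaggregase HSP104 by -5.59, -2.31 and -1.12, and neither passed at T60. The T30 calls were lost for SSA3 without WT T0 replicate 1 (-1.75) or T30 replicate 3 (-1.49), and for HSP104 without T0 replicate 1 or 3 or T30 replicate 1 or 3 (-1.68 to -2.52). TMA10 was listed at 161, 9.18 and 61.6 RPKM in WT at T0 and at 0 in the 9 WT and 9 crz1 libraries at pH 8.0, and no fold is given. In the 6 rim101 libraries at pH 8.0 it stood at 6.56 to 29.9 RPKM, and it was called higher there than in WT at T15, T30 and T60 (adjusted p = 0.00952, 0.0037 and 0.00668, limma). These calls were lost with a pseudocount of 5, and without rim101 T15 replicate 2, T30 replicate 2 or either T60 library. Those at T15 and T60 were also lost without the 9 libraries of high median. In crz1 the same numbers rose and fell, and in rim101 1, 3 and 1 rose and 4, 1 and 1 fell. Of all genes, 14.6%, 16.8% and 12.4% rose in crz1, and 8.33%, 5.28% and 5.4% fell. In rim101 5.47%, 23.5% and 2.72% rose, and 2.7%, 4.64% and 1.14% fell.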

How the data were processed

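The authors deposited RPKM values per gene and library, and a table with log2 fold changes, p-values and FDR of each group over WT T0; the latter entered no test. Per the labels' protocols the poly-A libraries did not keep strand, and no gene named with its position overlaps another gene. Bowtie2 and edgeR are the tools in the submitters' processing notes, and no genome build is named in the sources used here. Gene positions are those of the deposited table, and its 5040 identifiers matched a RefSeq table of strain GS115 with equal coordinates. No column of values was left unused.

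Values were analysed as log2(RPKM + 1) for genes with a mean of at least 1 RPKM over all 32 libraries. limma 3.58.1 (R 4.3.3) fitted 12 group means with a trended variance prior and two-sided tests (residual degrees of freedom 20), with Benjamini-Hochberg adjustment within each of 29 comparisons. RPKM are not counts, so no count model was run. In 30 libraries 94.2% to 100% of low values came out as whole reads within 0.1 read of a step; WT T15 replicate 2 and rim101 T30 replicate 1 had no single step. Python 3.11.15, pandas 2.3.3, numpy 2.4.6 and matplotlib 3.10.9 were used for summaries and plots. The fit was tested on simulated data. Alternatives were pseudocounts of 0.1 and 5, no filter, median-ratio and quantile scaling, the replicate block, each library left out, fits without the 9 libraries of high median, and, added after the data were seen, fits without T0 replicate 1 or 2 of all strains.

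The members, lists, tests and most alternatives were chosen with earlier results of these data known. All members were named; of each list, the up to 3 genes with the largest WT change among those called; and per member the most correlated gene. Per the labels each replicate is its own library, so p-values measure the spread between libraries. Replicate numbers paired the samples (every pair's deviations correlated over 0.1) in 5 of 14 comparisons with 3 pairs: crz1 T15 against T0, crz1 against WT at T0 and T30, and both crz1 steps; there the block changed no call of the 8 genes.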

Additional observations from a re-analysis of the deposited data

Results flagged for a closer look

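A result was singled out where the change of a mutant since T0 differed from that of WT with an adjusted p under 0.05 (limma), or where 1 library of a group of 4 or more stood apart; no group here has 4 libraries. PRM15 differed in this way at T30 in rim101, with an adjusted p of 0.0264 and a log2 difference in response of 3.23. This difference was not called in 13 of 18 alternatives, among them median-ratio scaling (adjusted p = 0.0922), quantile normalization (0.123) and the replicate block (0.0554), with values between 1.61 and 6.26. It was lost without WT T0 replicate 1 or 2, WT T30 replicate 2 or 3, or any 1 of the 4 rim101 libraries, and its size depends on the pseudocount because the WT libraries at T30 are listed at 0.

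RIM101, the mutated gene, also differed in its response in rim101, with adjusted p of 0.0221, 0.015 and 0.00926 and log2 differences of -1.76, -1.76 and -1.93 at T15, T30 and T60. Each of these 3 calls was lost without rim101 T0 replicate 2 (-1.63, -1.62 and -1.79), and also without rim101 T15 replicate 2, T30 replicate 2 or T60 replicate 1 at the respective time. At T15 it was lost as well without rim101 T0 replicate 1 or WT T15 replicate 1 or 3.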

How the results depend on the processing

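The counts of called genes among the 8 moved by over 1.5 times as follows. In WT, T15 and T30 went from 3 each to 6 and 6 without T0 replicate 2 of the strains, and T60 from 4 to 2 without the 9 libraries of median above 40 RPKM. In crz1, T30 went from 4 to 2 without those 9, and T60 from 5 to 3 without them, with quantile normalization, or without T0 replicate 1. In rim101, T15 went from 2 to 1 with a pseudocount of 0.1, with no filter, or without T0 replicate 1, and to 4 without T0 replicate 2. The rim101 T30 count went from 2 to 1 under the same 3 settings, to 4 with median-ratio scaling or quantile normalization, and to 5 without T0 replicate 2; without the 9 libraries it could not be fitted. The rim101 T60 count went from 0 to 1 with quantile normalization and to 2 without T0 replicate 2. The rim101 steps went from 0 to 1 with a pseudocount of 5, quantile normalization or the replicate block. The cause was not tested. Leaving out 1 library gave 2 to 6 calls in WT at each time, 4 to 4, 2 to 4 and 2 to 3 in crz1, and 1 to 2, 1 to 2 and 0 to 0 in rim101 at T15, T30 and T60, and 0 to 0 for the mutants against WT, the differences in response and the steps.

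With the replicate block, calls were gained for PGM2 in crz1 at T30 (-1.41, adjusted p = 0.0481, limma), GSY2 in rim101 at T30 (-1.70, 0.0278) and GDB1 from T30 to T60 in rim101 (-1.42, 0.0356). No other call of the 8 genes changed. In the crz1 comparison the pairs of equal number correlated at -0.03 to 0.32, so not every pair was over 0.1. The rim101 comparisons, with 2 pairs each, could not be judged by the rule of 3 pairs. Their pairs correlated at 0.15 (T30 against T0) and 0.33 (T60 against T30). GDB1 lost its T60 calls with quantile normalization in WT (0.99, adjusted p = 0.12, limma) and crz1 (0.86, adjusted p = 0.199). Of the 72 changes of the 8 genes against T0, 6 had another sign after median-ratio scaling and 5 after quantile normalization, none of them called. Among called values of other genes, 3 changed sign: PRM15 in WT at T60 without the 9 libraries (0.20), FKS1 in WT at T60 with median-ratio scaling (-0.0866) and CRZ1 in WT at T60 with quantile normalization (-0.14).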
